A study of Mus musculus with 41 samples.

Results

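Collagens are the proteins that give tissues their tensile strength. Each chain repeats a triplet that starts with glycine, chains wind around each other into a triple helix, and the helices assemble into fibrils, into the sheet-like network of basement membranes or into smaller filaments that link the fibrils to cells. In the lung they hold the alveolar wall and airways in shape, and the deposition of fibrillar collagen is the hallmark of fibrosis in lung and liver alike. The collagen chain genes were taken as every non-control probe on the mRNA arrays whose gene name was Col, a number, the letter a and a number. This gave 78 probes (96 spots) for 40 genes, out of 41174 probes for 27962 gene names. By the supramolecular form of the chain, 11 genes were fibrillar, 6 belonged to the basement membrane network, 4 to beaded filaments, 1 to anchoring fibrils, 3 to hexagonal networks, 9 to the fibril-associated collagens with interrupted helices (FACIT), 4 were transmembrane and 2 were multiplexins.

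The samples were of female C57BL/6 mice (C57BL/6BomTac in the methods), whose age the labels give only as equivalent to GD4. According to the methods, they had been mated without becoming pregnant. Exposed mice inhaled 40 mg/m3 of surface-coated nanoTiO2 (rutile titanium dioxide nanoparticles) for 1 h per day on 11 days, control mice inhaled filtered air on the same schedule, and all were killed 5 days after the last exposure. Lung RNA came from 7 exposed and 6 control mice and liver RNA from 7 exposed and 8 control mice, with 1 array per mouse and tissue. Each array set the Cy5-labelled RNA of a mouse against a Cy3-labelled reference RNA pooled from mouse cell lines, so that each level is a log2 ratio of sample to reference. Such ratios compare 1 gene between samples and do not rank genes against each other.

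Between 55.1% and 70.5% of the spots of an array were well above background in Cy5, and 2.63% to 4.94% carried an outlier mark of the scanner software and were left out. No collagen spot was saturated in Cy5. Of the 40 collagen genes, 32 were well above background on every lung array and 25 on every liver array, while 2 were so on no lung array and 3 on no liver array. Each labelled tissue carried its markers, as all 5 lung epithelial markers (Sftpc, Sftpb, Sftpa1, Scgb1a1 and Ager) were higher in control lung. All 3 hepatocyte markers on the arrays (Apoa1, Ttr and Fgb) were higher in control liver, where Fgb had a value on only 1 array. Exposed mice always took positions 1 and 2 of their slide and controls positions 3 and 4, and the effect of position cannot be told apart from that of exposure. The fourth lung slide held 2 exposed samples and no control. Lung and liver were hybridized on different slides and read with different software versions, which cannot be told apart from tissue.

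What ties the family together can be read in the probes themselves. All probes are 60 bases long, and 3 collagen probes, but 0 of the other probes on the array, run through the coding sequence of the helix such that a glycine codon recurs at the spacing of the triplet over the whole probe. They are shown because they carry the defining motif of a collagen chain; positions are those of the array design on mouse build mm7, the minus-strand gene is Col5a3, and capitals mark the glycine codons (GGN).
Col11a2, chr17:32131401-32131567: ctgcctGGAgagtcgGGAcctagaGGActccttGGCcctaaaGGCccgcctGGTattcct
Col5a1, chr2:27994034-27996457: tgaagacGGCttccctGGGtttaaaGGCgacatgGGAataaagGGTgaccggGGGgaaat
Col5a3, chr9:20655471-20656200: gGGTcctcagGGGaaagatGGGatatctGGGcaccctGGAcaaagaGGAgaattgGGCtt
The annotated span of each of these 3 probes is longer than the probe. Each is a further probe of a gene that is reported by a brighter one, since each of the 28 genes that had more than 1 probe was reported by the one of highest mean Cy5 signal. In control lung minus control liver, the 3 helix probes read -0.40 (Col11a2), -0.21 (Col5a1) and -0.18 (Col5a3) on the log2 scale, against -0.39, 1.46 and -0.72 for the brighter probes of the same genes. The Col5a1 probes thus differed in sign.

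In the lung, no collagen gene passed the threshold after nanoTiO2 inhalation. With limma and Benjamini-Hochberg adjustment over all probes, 0 of 78 collagen probes had an adjusted p under 0.05, where 0.202% of all 41155 tested probes did, and the lowest adjusted p of a collagen probe was 0.456. At an unadjusted p under 0.05 there were 5 of 78 collagen probes, all of them higher in exposed lung, where 7.13% of all probes passed in either direction and 3.84% in the higher direction. The signs leaned upward: 57 of 78 collagen probes had a positive difference, beside 50.9% of all probes. By gene, 31 of 40 were positive, with a median of 0.06 on the log2 scale beside 0.0015 over all probes. The genes are not independent of each other, and no test was made of this count.

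The 95% intervals give the precision behind these differences. For the 34 collagen genes that were above background on at least 50% of the arrays of a lung group, the intervals of exposed minus control together spanned -0.33 to 0.63 on the log2 scale. All 34 intervals lay within 1 log2 unit of 0, 33 lay within 0.5, and 31 included 0. For the major fibrillar chains the difference was 0.05 for Col1a1 (interval -0.16 to 0.26) and 0.06 for Col1a2 (-0.26 to 0.39), the chains of type I collagen. The Col1a2 probe had a value on only 8 of the 13 lung arrays. Col3a1, the chain of type III collagen of extensible tissue, had a difference of 0.17 (-0.05 to 0.39).

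**Figure D1:**
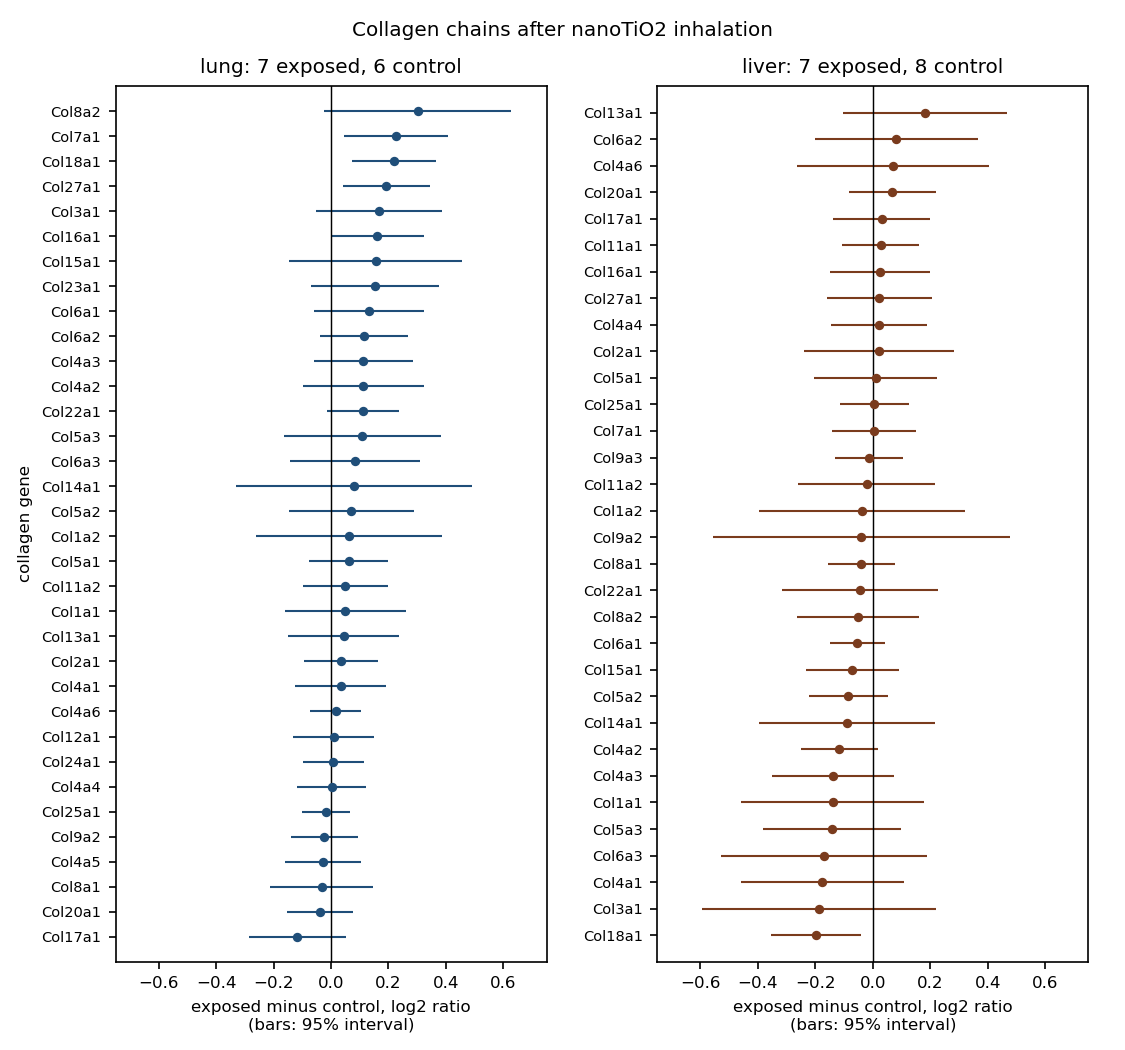
Exposed minus control difference in log2 ratio for the collagen genes above background on at least 50% of the arrays of a group, in lung (34 genes, left) and liver (32 genes, right), 1 row per gene sorted by its difference; points are limma estimates and bars 95% intervals. Most lung points lie to the right of 0 and most liver points to the left, and 31 intervals in each tissue include 0.

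The lung difference with the lowest p among the collagens was that of Col18a1, the basement membrane multiplexin whose end fragment is endostatin. Its log2 ratio had a lowest, median and highest value of -1.04, -0.82 and -0.67 in the 7 exposed mice, and of -1.20, -1.05 and -0.89 in the 6 controls. The groups overlapped, with 7 of 7 exposed mice above the control mean and 5 above every control. The difference was 0.22 ± 0.07 (SE; interval 0.07 to 0.37; unadjusted p = 0.00577 and adjusted p = 0.456 from limma). It was 0.37, 0.06 and 0.22 within lung slides 1, 2 and 3. A second Col18a1 probe had a difference of 0.17 (unadjusted p = 0.030 from limma).

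Col7a1, the chain of the anchoring fibrils that fasten epithelium to stroma, ranged from -0.17 over a median of 0.08 to 0.40 in exposed lung and from -0.27 over -0.14 to 0.03 in control lung. The groups overlapped, with 4 of 7 exposed mice above every control, and the difference was 0.23 (interval 0.04 to 0.41; adjusted p = 0.616 from limma). Col27a1, a fibrillar chain of cartilage, had values of 0.42 to 0.70 in 6 exposed and 0.13 to 0.53 in 6 control lungs, a difference of 0.19 (adjusted p = 0.607 from limma). Over the 3 Col27a1 probes the difference ran from 0.02 to 0.19, the reported probe being the highest. Neither Col7a1 nor Col27a1 had groups without overlap.

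The highest point estimate belonged to Col8a2, a short chain of hexagonal networks, at 0.30 (interval -0.02 to 0.63), and 0.18 without control mouse 29. Its 6 control lungs spread from 1.12 to 2.12, and its 6 measured exposed lungs from 1.84 to 2.19. The 2 controls of lung slide 2 averaged 1.22, and the exposed mouse of that slide had no Col8a2 value. Within lung slides 1 and 3 the Col8a2 difference was 0.18 and -0.07. The lowest estimate was -0.12 for Col17a1, a transmembrane collagen of epithelial cells (interval -0.29 to 0.05). Next came Col20a1 at -0.04, Col8a1 and Col4a5 at -0.03 each and Col9a2 at -0.02. None of these differences exceeded the spread between mice.

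By form, positive differences were found for 10 of 11 fibrillar genes, 5 of 6 basement membrane genes, 3 of 4 beaded filament genes, 6 of 9 FACIT genes, 2 of 3 hexagonal network genes, 2 of 4 transmembrane genes, both multiplexins and the anchoring fibril gene. Among the type IV chains of the basement membrane, Col4a3 had 0.11, Col4a2 0.11, Col4a1 0.03, Col4a6 0.02 and Col4a4 0.00. A second Col4a1 probe had 0.21 (unadjusted p = 0.035 from limma). For the remaining chains fixed by name, the differences were 0.06 for Col5a1, 0.07 for Col5a2, 0.13 for Col6a1, 0.11 for Col6a2, 0.08 for Col6a3 and 0.16 for Col15a1. The fibroblast markers Pdgfra, Pdgfrb, Dcn, Lum and Tcf21, all 5 above background on every lung array, also gave 0 calls. Their mean log2 ratio, over the markers with a value, was 1.41 to 2.03 in exposed and 1.56 to 1.82 in control lungs. Pdgfrb had a value on 6 of 7 exposed and 4 of 6 control lungs.

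In the liver, the organ compared with the site of deposition, no collagen probe passed either: 0 of 78 had an adjusted p under 0.05, as did 0 of all 41143 tested probes (0% called, limma). At an unadjusted p under 0.05 there was 1 of 78, lower in exposed liver, where 2.53% of all probes passed in either direction and 1.66% in the lower direction. Signs were positive for 31 of 78 collagen probes, beside 47.2% of all probes. For the 32 genes above background on at least 50% of the arrays of a liver group, the 95% intervals spanned -0.59 to 0.48, 29 lay within 0.5 log2 units of 0, and 31 included 0.

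That single probe was again Col18a1, in the opposite direction. Its liver values were 3.64 to 3.93 (median 3.70) in 5 exposed mice and 3.89 to 4.03 (median 3.93) in 4 controls, with 4 of 5 exposed mice below every control. The spot was marked as an outlier and left out on 6 of the 15 liver arrays. The difference was -0.20 ± 0.07 (SE; unadjusted p = 0.0174 and adjusted p = 0.99998 from limma), and -0.16 with the marked spots kept, over 7 exposed and 8 control livers. Within liver slides 1, 2 and 3 it was -0.09, -0.27 and -0.15. With median centering in place of loess it was 0.18, so that its direction depended on the normalization.

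The other low estimates in liver were those of Col3a1 (-0.19), Col4a1 (-0.18), Col6a3 (-0.17) and Col5a3 (-0.14), and each interval included 0. At the other end stood Col13a1, a transmembrane collagen of cell adhesions, at 0.18, with values of 1.90 to 2.94 in exposed and 1.81 to 2.36 in control livers. Col6a2 (0.08), Col4a6 (0.07), Col20a1 (0.07) and Col17a1 (0.03) followed. The groups overlapped for all 9 genes.

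The difference between the exposure effects in lung and liver was tested for every probe in a fit over all 28 arrays. No collagen probe was called (0 of 78, beside 0.141% of all 41125 tested probes), and 3 of 78 had an unadjusted p under 0.05, beside 4.3% of all probes. All 3 had the higher effect in lung, as did 2.81% of all probes at that threshold. They were both Col18a1 probes and the second Col4a1 probe. For Col18a1 the lung effect exceeded the liver effect by 0.42 ± 0.10 (SE; interval 0.21 to 0.63; unadjusted p = 0.00052 and adjusted p = 0.227 from limma), and for its second probe by 0.30 (adjusted p = 0.726 from limma). When the marked spots were kept, a setting added after the values were seen, the first probe had 0.38 and an adjusted p of 0.0464 (limma) and was called. Under the other settings tried, and with any 1 array left out, its adjusted p was above the threshold. For the second Col4a1 probe the difference was 0.38 (unadjusted p = 0.0119 from limma), while the brighter Col4a1 probe had 0.21 with an interval of -0.13 to 0.55.

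**Figure D2:**
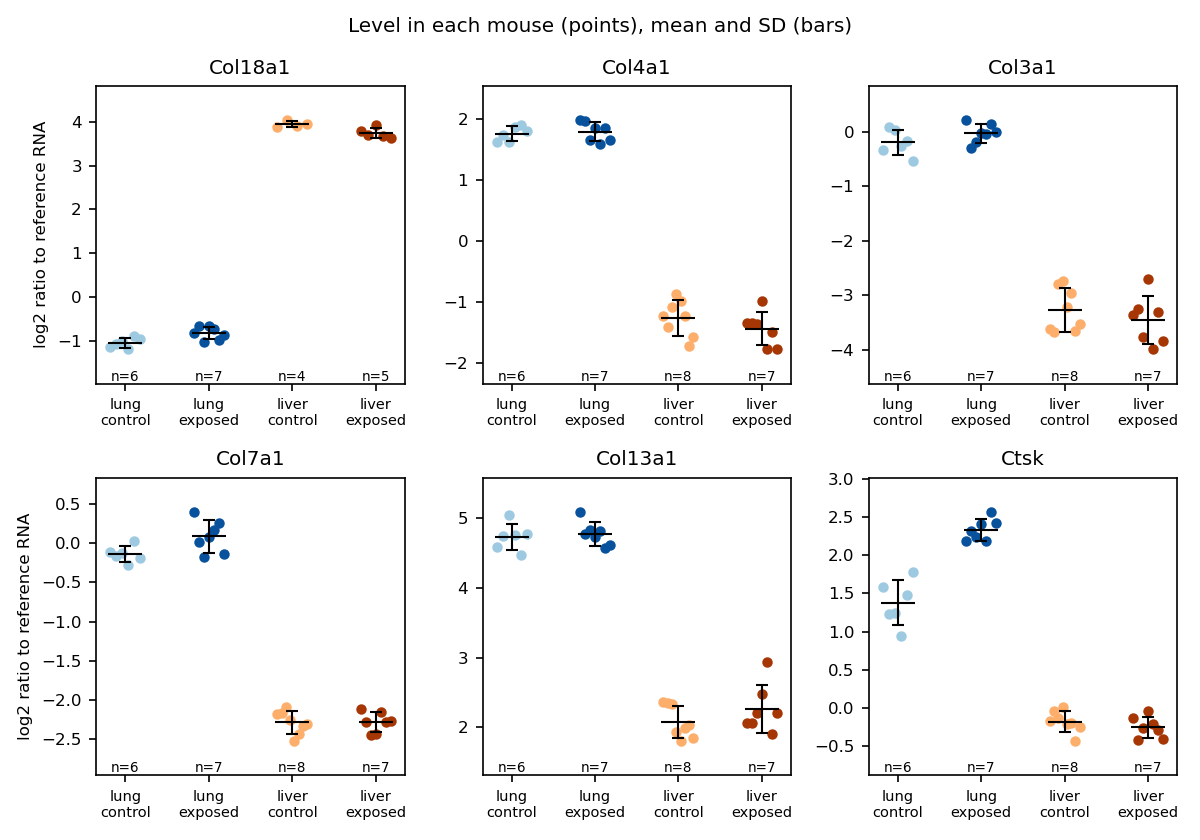
Log2 ratio to the reference RNA in each mouse (points) for Col18a1, Col4a1, Col3a1, Col7a1, Col13a1 and the collagen-degrading protease Ctsk, in the 4 groups, with mean and SD as bars and the number of measured arrays under each group. In all 6 panels lung and liver separate widely; exposed and control overlap for the collagens, while the 7 exposed lungs lie above all 6 control lungs for Ctsk.

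The organs differed by more than the exposure groups did. In control lung against control liver, 34 of 40 collagen genes were called, 21 higher in lung and 13 lower. By probe, 58 of 78 were called, 39 higher and 19 lower, where 59.6% of all 41162 tested probes were called (30% higher and 29.7% lower). Well above background on any control arrays of both tissues, however few, were 32 genes, and 31 of these were called (20 higher in lung, 11 lower). In such whole-tissue RNA, fewer cells of a type and less RNA per cell cannot be told apart.

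The largest differences in favour of the lung were those of Col1a1 and Col3a1, although the fibrillar class as a whole was mixed, with a median difference of 0.19 on the log2 scale against 2.50 for the basement membrane class. Col1a1 had log2 ratios of -1.90, -1.78 and -1.31 (lowest, median and highest) in 6 control lungs and of -5.34, -4.83 and -4.45 in 8 control livers. The groups were far apart, by 3.13 ± 0.14 (SE), or 8.77-fold (adjusted p = 2.95e-18 from limma). Col3a1 followed at 8.42-fold, with values of -0.54 to 0.09 in lung and -3.67 to -2.74 in liver. Col1a2 was 6.87-fold, Col5a2 4.05-fold and Col5a1 2.75-fold higher in lung, the type V chains being those that help nucleate type I fibrils. Of the fibrillar genes, 10 of 11 were called, 6 higher and 4 lower.

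All 6 chains of type IV collagen were called. Col4a1 ranged from 1.62 to 1.91 (median 1.77) in control lungs and from -1.73 to -0.87 (median -1.23) in control livers, an 8.15-fold difference without overlap. Its partner Col4a2 was 4.60-fold higher in lung. The chains that form the network of the alveolar and glomerular basement membrane were likewise higher in lung, Col4a4 by 7.82-fold, Col4a3 by 6.96-fold and Col4a5 by 2.43-fold. Col4a3 was above background on 6 and Col4a5 on 2 of the 8 control livers.

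For Col4a6 the 3 probes disagreed. The brightest was lower in lung, by -1.35 on the log2 scale (2.54-fold), whereas the others were higher by 0.54 and 3.27, and with 1 value per gene symbol the gene was called higher in lung (0.75). The Col2a1 probes disagreed as well, with -0.85 for the brightest probe and 1.42 and -0.15 for the others, and 0.21 as 1 value per gene symbol. Directions for these 2 genes therefore depend on the probe. Signs also differed between the probes of other genes, among them Col5a1 (-0.21 and 1.46) and Col24a1 (-0.09 and 0.19).

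Among the remaining forms, called and higher in lung were 3 of 4 transmembrane genes (Col23a1 7.11-fold, Col13a1 6.25-fold and Col17a1 4.48-fold, with Col25a1, above background on 1 of 6 control lungs and 6 of 8 control livers, called lower), 3 of 4 beaded filament genes (Col6a3 6.24-fold, Col6a1 3.28-fold and Col6a2 2.08-fold), Col7a1 (4.44-fold), and 2 of 3 hexagonal network genes (Col8a2 4.34-fold and Col8a1 1.73-fold). Col23a1 was above background on 2 and Col17a1 on 4 of the 8 control livers. Of the 9 FACIT genes, which decorate the surface of fibrils, 6 were called, only Col16a1 being higher in lung (3.01-fold) and 5 being lower.

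Col18a1 had the largest difference of the 40 genes, and in favour of the liver. Its values were -1.20 to -0.89 in control lungs and 3.89 to 4.03 in the 4 control livers measured, a difference of -4.99 ± 0.08 (SE), or 31.8-fold higher in liver (adjusted p = 1.09e-24 from limma). The second probe gave 23.8-fold, and the range over the alternatives was -5.50 to -4.68 log2 units. The probes map to chr10:76707663-76707722 and chr10:76707908-76707967 on mm7. The other multiplexin, Col15a1, was 1.36-fold higher in liver.

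After Col18a1, the genes lower in lung were Col9a2 (2.78-fold), Col4a6 and Col2a1 (above), Col5a3 (1.64-fold), Col14a1 (1.49-fold), Col15a1, Col20a1 (1.35-fold), Col11a2 (1.31-fold) and Col22a1 (1.22-fold). Col22a1 was the weakest of these (adjusted p = 0.024 from limma): it lost its call without lung control mouse 34 (adjusted p = 0.0549), liver control mouse 27 (0.0591) or liver control mouse 45 (0.0591), and with mouse number as a block (0.0964). Where a probe was not well above background on any array of 1 group, a bound was sought. For it the dim side was set to the lowest signal well above background on each array. By that measure, taken in the Cy5 signal, Col9a3 was 1.09-fold higher in liver. Col11a1, not above background on any control lung array, and Col24a1, not above it on any control liver array, had fitted differences of -0.28 and 0.19 in log2 ratio. For these 2 genes the Cy5 measure came out above the fitted fold. It is therefore not taken as a lower bound, for them or for Col9a3. Col10a1 was not well above background in either.

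**Figure D3:**
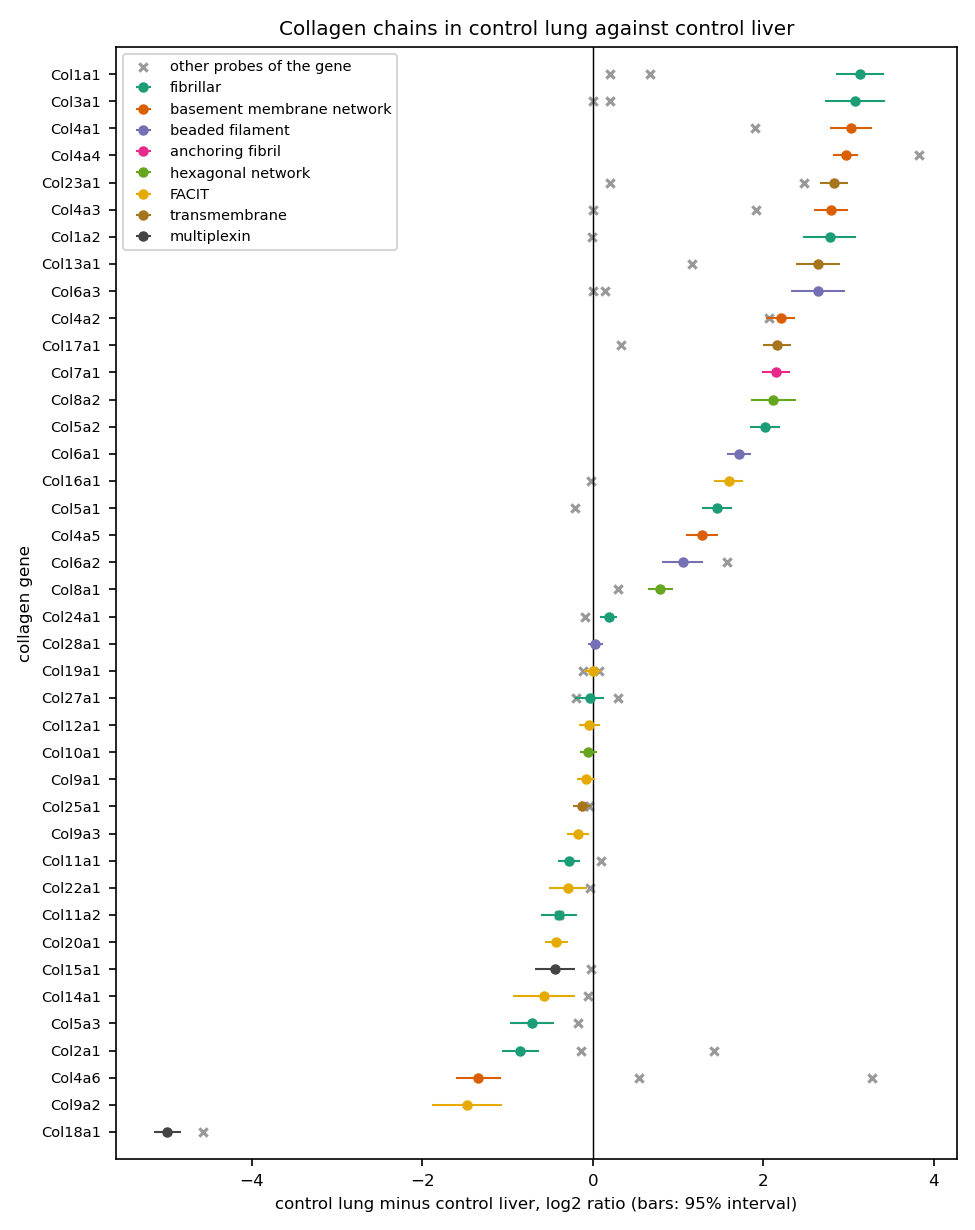
Control lung minus control liver difference in log2 ratio for the 40 collagen genes, sorted by size; points are limma estimates of the brightest probe, colored by the form of the chain, bars are 95% intervals and grey crosses the other probes of the gene. Genes from Col1a1 (3.13) to Col8a1 (0.79) lie to the right of 0, Col18a1 lies alone at -4.99, and for several genes the crosses fall near 0 or on the other side.

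The grey crosses are part of the result. For Col1a1 the other probes gave 0.66 and 0.20 against 3.13, for Col3a1 0.20 and -0.00 against 3.07, and for Col1a2 -0.01 against 2.78. Among the 28 genes with several probes, the brightest probe was the one nearest the 3′ end in 19 and had the largest tissue difference in 21. Of all 78 probes, 12 were not well above background in either tissue. An offset of 50 in the background correction draws the ratios of such dim spots toward 0. All 3 Col1a1 probes were well above background on at least 50% of the control lungs. The part of the offset in the differences between probes was not tested.

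Within the liver, levels of some chains that were higher there followed the slide, and 4 of them, chosen after their values were seen, are given here. Col4a6 averaged 0.96 in the exposed and 1.07 in the control mice of slide 1 and 1.13 and 1.00 in those of slide 3, but 1.64 and 1.60 on slide 2 and 1.71 and 1.71 on slide 4. Col2a1 averaged 0.30 and 0.31 on slide 1, 0.31 and 0.43 on slide 3, 0.76 and 0.71 on slide 2 and 0.79 and 0.98 on slide 4. Col9a2 was highest on slide 2, at 2.16 and 2.26, against 0.87 to 1.40 for the group means of the other slides. Col22a1 averaged -0.50 and -0.56 on slide 1 and -0.65 and -0.62 on slide 3, but -0.17 and -0.05 on slide 2 and -0.19 and -0.04 on slide 4. Exposed minus control within a slide was -0.11, 0.04, 0.13 and -0.01 for Col4a6 on slides 1 to 4, less than the step between the slides. The part of the slide in these levels was not tested.

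Chains that share a helix or a fibril were compared across mice, as 4 pairs in each tissue, with permutation tests and adjustment over the 8 relations. In liver, Col1a1 and Col3a1 varied together over 15 mice (Pearson's r = 0.91, permutation p = 2e-05, adjusted 0.00016; Spearman's rho = 0.84, permutation p = 0.00025), and r was 0.86 without the 2 mice farthest from the median of Col1a1. With slide and group means removed it was 0.94. Col1a1 and Col1a2, which make up the type I heterotrimer, had r = 0.77 over 12 livers (permutation p = 0.0033, adjusted 0.0088; rho = 0.69, permutation p = 0.0153), and 0.83 without the 2 farthest mice.

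The same pairs were compared in lung. Col1a1 and Col1a2 had r = 0.78 over 8 lungs (exact permutation p = 0.0248, adjusted 0.0396; rho = 0.83, exact permutation p = 0.0154), but r was 0.44 without the 2 mice farthest from the median, so that the pooled relation rests on these. With slide and group means removed r was 0.80 (rho = 0.95) and 0.87 without the 2 farthest. No p is given for these values, since the permutation ignored the slide and group terms fitted to the 8 lungs. Col1a1 and Col3a1 had r = 0.46 over 13 lungs (permutation p = 0.118, adjusted 0.157; rho = 0.51, permutation p = 0.0780) and 0.43 without the 2 farthest. Whether lung and liver differ in these relations was not tested.

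Col4a1 and Col4a2, the chains of the most common type IV heterotrimer, varied together in both organs. In lung r was 0.66 over 13 mice (permutation p = 0.0127, adjusted 0.0255; rho = 0.64, permutation p = 0.0208) and 0.61 without the 2 farthest. In liver r was 0.72 over 15 mice (permutation p = 0.00247, adjusted 0.0088; rho = 0.67, permutation p = 0.00763) and 0.77 without the 2 farthest. With slide and group means removed it was 0.62 in lung and 0.47 in liver (permutation p = 0.0772, adjusted 0.124). The liver rho was 0.59 (permutation p = 0.0212, adjusted 0.0340), and r was 0.60 without the 2 farthest. These permutations ignored the slide and group terms fitted. Neither p therefore decides whether the liver relation held, and no other p is given.

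These 2 genes also share their start. In RefSeq on GRCm38.p6 they lie head to head on chromosome 8, Col4a1 on the minus strand from base 11312826 and Col4a2 on the plus strand from base 11312805. The first bases of the 2 transcripts therefore overlap by 22 bases, shown here in capitals on the plus strand with 4 bases to each side, because this is the shortest stretch that belongs to both genes.
Col4a1 and Col4a2, chr8:11312801-11312830: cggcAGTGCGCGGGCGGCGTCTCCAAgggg
The letters GGGCGG, searched on both strands, occur within the shared stretch. Over windows from 250 bases before to 50 bases after a start, GGGCGG was found in 20 of 35 collagen promoters (32 symbols matched) and in 35.7% of all 32851, CCAAT in 12 of 35 and 37.4%, and TATAAA in 5 of 35 and 13.6%. A match to letters is a description of the window.

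The last pair was of neighbours as well. Col6a1 and Col6a2 are neighbours on chromosome 10 and give 2 of the chains of type VI collagen, the beaded filament around cells. Their r was -0.04 over 12 lungs (permutation p = 0.900, adjusted 0.900; rho = 0.18, permutation p = 0.573), 0.40 without the 2 farthest and 0.13 with slide and group means removed. Over 15 livers r was 0.13 (permutation p = 0.633, adjusted 0.723; rho = 0.21, permutation p = 0.456), 0.37 without the 2 farthest and 0.35 with slide and group means removed.

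**Figure D4:**
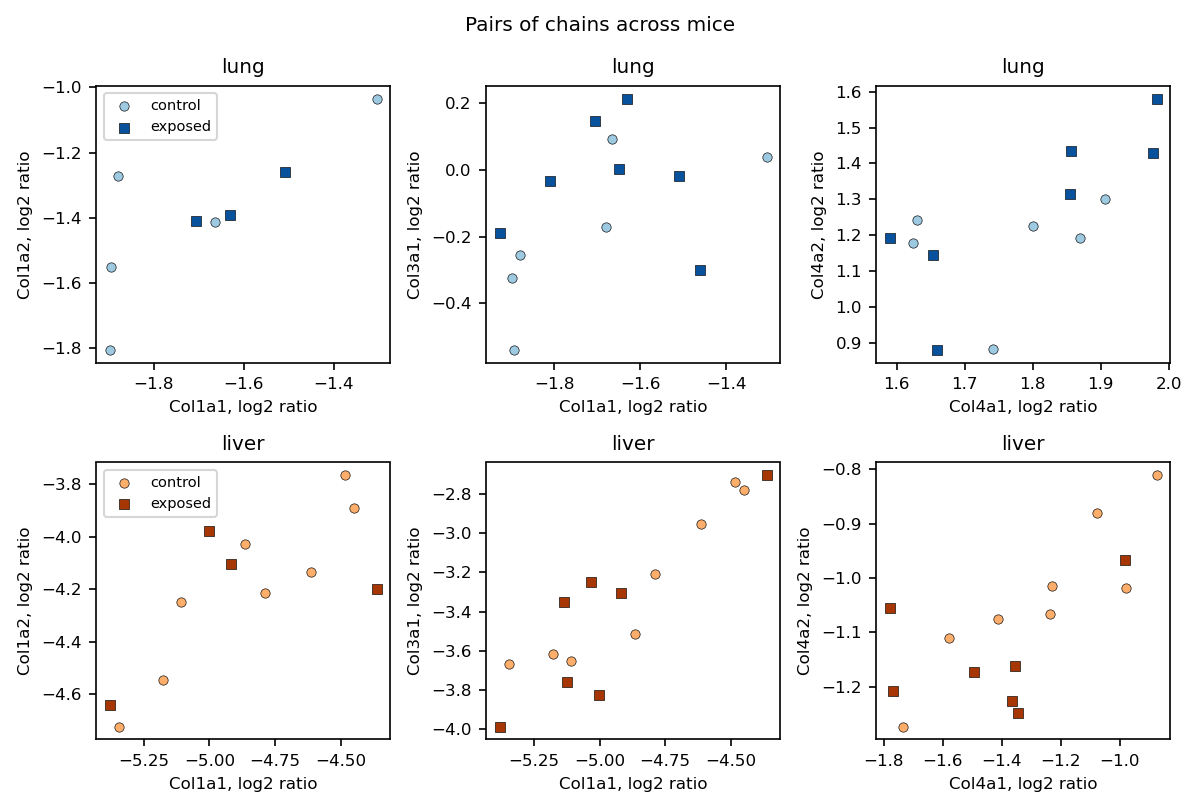
Log2 ratios of 2 chains in the same mouse, with lung in the upper and liver in the lower row; circles are control and squares exposed mice, and the columns pair Col1a1 with Col1a2, Col1a1 with Col3a1, and Col4a1 with Col4a2. The liver points of Col1a1 and Col3a1 lie closest to a line (r = 0.91), and 1 control mouse with high values of both chains stands apart in the lung panel of Col1a1 and Col1a2 (r = 0.78, and 0.44 without the 2 farthest mice).

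Of the 69 other genes of the collagen pathway that were on the arrays, 1 was called in exposed lung, beside 0.202% of all probes, and 0 in exposed liver, beside 0% of all probes (limma). It was Ctsk, cathepsin K, a lysosomal protease that cuts the collagen triple helix. Its log2 ratio was 2.19, 2.32 and 2.57 (lowest, median and highest) in 7 exposed lungs and 0.95, 1.36 and 1.77 in 6 controls. The groups did not overlap, which held in the higher direction for 0.274% of the 31796 probes with a value on every lung array. The difference was 0.96 ± 0.11 (SE), or 1.94-fold (adjusted p = 0.00068 from limma), and 0.85, 1.14 and 0.67 within lung slides 1, 2 and 3. With any 1 array left out it was 0.87 to 1.04 and called. The call was lost where the background model was fitted on all spots (0.37, adjusted p = 0.730) and with median centering (0.98, adjusted p = 0.99993).

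In liver Ctsk differed by -0.07, but it was well above background on only 0 of 7 exposed and 4 of 8 control livers. The lung effect exceeded the liver effect by 1.03 (adjusted p = 5.88e-05 from limma). That call was lost with the background model fitted on all spots (0.47, adjusted p = 0.564) and with median centering (1.05, adjusted p = 0.207, both from limma). The 4 macrophage markers were above background on every lung array and positive in 4 of 4, beside 50.9% of all probes. Their mean log2 ratio was 1.32 to 1.58 in exposed and 0.99 to 1.30 in control lungs. Markers of heart muscle (5 of 5), mesothelium, fat and hepatocytes (3 of 3 each) were also all positive, those of lung epithelium in 0 of 5. The other marker lists were mixed. Of the macrophage markers Marco, a scavenger receptor of alveolar macrophages, was called (0.57, adjusted p = 0.0092 from limma). Macrophages are among the cells that make cathepsin K, and the part of the macrophage markers in the Ctsk difference was not tested.

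Closest to the threshold among the named pathway genes in lung were Mmp2, a gelatinase, at 0.39 (adjusted p = 0.059), and Ddr1, a collagen-binding receptor kinase, at 0.32 (adjusted p = 0.081, both from limma). Mmp2 lay between -0.52 and -0.13 in exposed and between -0.97 and -0.57 in control lungs, without overlap. Ddr1 ranged from 0.79 to 1.06 in exposed and from 0.36 to 0.81 in control lungs. Bgn, a small proteoglycan that binds collagen, had 0.34 (adjusted p = 0.232). None of the 27 enzymes and chaperones of collagen maturation was called in lung.

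Between the organs most pathway genes differed as well. In control lung against control liver 60 of 69 genes were called, 50 higher in lung and 10 lower, beside 59.6% of all probes. Among the 27 maturation genes 18 were higher and 5 lower. Serpinh1, the chaperone HSP47 that binds the folded procollagen helix, was 14.6-fold higher in lung, and Pcolce2, an enhancer of procollagen cleavage, 18.9-fold. Lower in lung were P4hb, the beta subunit of prolyl 4-hydroxylase that doubles as protein disulfide isomerase (2.53-fold), and Bmp1, a procollagen C-proteinase (2.00-fold).

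Of the 25 matrix partners 18 were higher and 4 lower in lung, the extremes being the small proteoglycan Ogn at 33.7-fold higher and the adhesive glycoprotein fibronectin, Fn1, at 5.45-fold lower. Of the 9 receptors 8 were higher in lung, among them the receptor kinases Ddr2 (9.25-fold) and Ddr1 (8.87-fold). Of the 8 genes of breakdown and uptake 6 were higher and 1 lower, the endocytic collagen receptor Mrc2 being 5.64-fold higher. The fibroblast markers with a value on an array averaged 1.56 to 1.82 in control lungs and 0.07 to 0.60 in control livers. Pdgfrb had a value on 4 of 6 control lungs and Dcn on 4 of 8 control livers. Of these Pdgfra, Pdgfrb and Tcf21 were called higher in lung and Lum lower (2.14-fold), while Dcn had -0.14 (adjusted p = 0.651 from limma). Called higher in lung were also 5 of 5 smooth muscle, 3 of 3 mesothelium, 4 of 4 endothelium and 5 of 5 heart muscle markers. Of the 4 hepatic stellate markers 3 were lower in lung and Lrat was higher, and the list averaged 0.51 to 1.47 in control lungs and 2.16 to 2.63 in control livers. The part of these cell types in the collagen levels was not tested.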

How the data were processed

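The authors deposited the scanner output of each mRNA array, whose spot intensity values are not normalized, and a table of log2 ratios that their methods describe as LOWESS-normalized. Lung arrays were read with software version 9.5.3.1 and liver arrays with 10.1.1.1. The deposited liver files carry no gene names, which were taken from the identical probe names of the lung files. Median intensities were corrected with normexp (offset 50), after leaving out spots marked as outliers, and normalized by loess within each array with control spots at weight 0. Ratios are Cy5 over Cy3, and they correlated with the authors' log2 table at 0.992 to 0.996 per array. Repeated spots were averaged by probe. Means over a marker list were taken over the markers with a value on the array.

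Differences between groups were tested with limma 3.58.1 (R 4.3.3; lmFit, eBayes) and Benjamini-Hochberg adjustment over all probes, with a threshold of 0.05. Lung and liver were fitted separately. Tissue and the difference between exposure effects came from 1 fit over 28 arrays. Folds come from the fitted log2 difference. Correlations used permutation tests (100000 resamples; all orders below 10 mice). The method was tested on simulated data. The members, gene lists and the early removal of marked spots were chosen with earlier results of these data known.

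For genes with several probes the brightest was reported. Named were called genes (for tissue the 10 highest and 10 lowest) and 16 chains fixed by name. For each exposure comparison, the 5 highest and 5 lowest differences among genes above background were named too. Outside that rule, Col16a1, Col25a1 and others are named where a class or a bound is described. Mouse numbers tie lung and liver of the same animal for 12 mice, whose deviations from the group means correlated between tissues at -0.08 to 0.21. Sequences came from the array design (mm7) and RefSeq (GRCm38.p6). Alternatives are given with their effects in the closing section, and every array with a group was kept. The number of arrays limits the precision.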

Additional observations from a re-analysis of the deposited data

Results flagged for a closer look

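In 6 of 119 groups of collagen values, 1 mouse stood far from the rest, which chance alone gives in about 1 group in 20. Mouse 26 was the lowest control lung for Col27a1 (0.13, the nearest other at 0.42) and for Col4a2 (0.88, the nearest at 1.18). Mouse 29 was the lowest control lung for Col15a1 (0.22, the nearest at 0.70). Mouse 1 was the highest exposed lung for Col4a3 (3.54, the nearest at 3.30) and the lowest exposed liver for Col8a1 (-3.72, the nearest at -3.50). Mouse 45 was the highest control liver for Col27a1 (0.75, the nearest at 0.49). All values are log2 ratios to the reference RNA. The lung difference of Col27a1 kept its sign with each array left out in turn (0.13 to 0.23).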

How the results depend on the processing

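No collagen probe was called in either exposure comparison under any alternative, or with each array left out in turn (0 to 0 calls). In control lung against control liver 58 probes were called, 55 to 58 with each array left out, 45 with the background model fitted on all spots, 53 under median centering, 52 with mouse number as a replicate block and 31 of 40 genes with 1 value per gene symbol. For the difference between exposure effects the count was 0 with the replicate block and with each array left out (0 to 0), and 1 (Col18a1) with marked spots kept, a setting added after the values were seen. The block ended the tissue call of Col22a1 (-0.20) and turned no tissue direction.

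The background model and the normalization mattered most for counts over all probes. In lung 83 probes were called, but 12 with the background model fitted on all spots, 4 under median centering and 133 where slide was a random block. For the difference between exposure effects 58 were called, 5 with the first, 12 with the second and 34 with the processed signals. The cause was not tested. Tissue calls were also lost by Col15a1 (-0.18) with the background model on all spots, by Col14a1 (-0.59) with the processed signals, by Col14a1 (-0.51), Col15a1 (-0.34) and Col22a1 (-0.22) under median centering, and by Col22a1 (-0.16) with 1 value per gene symbol.

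Signs of small differences turned as follows, none of them called except the last 2 tissue values. With the background model on all spots, lung differences were -0.047 for Col8a2, 0.22 for Col20a1, 0.0026 for Col9a2, -0.089 for Col4a1, -0.64 for Col4a3, -0.24 for Col4a4 and -0.032 for Col15a1. Liver differences under it were -0.30 for Col6a2, -0.038 for Col20a1, -0.081 for Col17a1, -0.21 for Col4a4, -0.15 for Col4a5, -0.19 for Col5a1 and 0.28 for Col15a1. The tissue difference of Col14a1 was 0.075, and the difference between effects was -0.57 for Col4a3, 0.076 for Col4a5 and -0.31 for Col15a1. With the scanner software's processed signals, Col20a1 in lung was 0.10, Col17a1, Col5a1 and Col5a2 in liver were -0.28, -0.0079 and 0.025, and Col4a4 between effects was 0.012. With median centering, Col8a1 and Col4a5 in lung were 0.075 and 0.039, Col5a1 between effects was -0.0090, and in liver Col18a1 was 0.18, Col3a1 0.0069, Col1a1 0.052, Col1a2 0.26, Col4a2 0.030, Col5a2 0.032 and Col6a1 0.10. With the authors' table, Col4a4 and Col4a6 in lung were -0.015 each and Col5a1 in liver was -0.00072. With marked spots kept, Col5a1 in liver was -0.0039. With slide as a fixed block, Col9a2 and Col4a4 in lung were 0.0073 and -0.051 and Col4a4 in liver was -0.0051, and with slide as a random block Col4a4 in lung was -0.011. With the replicate block, Col6a2 between effects was -0.12. With 1 value per gene symbol, Col4a3 and Col4a4 in lung were -0.11 and -0.089, and Col1a2 and Col4a4 in liver were 1.02 and -0.050. Between effects Col1a2, Col4a3, Col4a6 and Col5a1 were -0.84, -0.057, 0.092 and -0.15. The 2 large Col1a2 values rest on missing spots, as its brighter probe had no value in the exposed livers of slides 1 and 2. In those livers only the other Col1a2 probe, at -0.22, -0.24 and -0.44, entered the mean. The tissue differences were 0.75 for Col4a6 and 0.21 for Col2a1, both called.

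With each array left out in turn, ranges that crossed 0 were, in lung, -0.038 to 0.029 for Col4a4, -0.077 to 0.018 for Col8a1, -0.054 to 0.0015 for Col9a2, -0.036 to 0.16 for Col1a2, -0.0064 to 0.035 for Col4a6 and -0.0090 to 0.15 for Col6a3. In liver they were -0.014 to 0.081 for Col17a1, -0.12 to 0.10 for Col1a2, -0.040 to 0.067 for Col4a4 and -0.066 to 0.060 for Col5a1, and between effects -0.038 to 0.19 for Col1a2, -0.065 to 0.042 for Col4a4, -0.13 to 0.0053 for Col4a6 and -0.042 to 0.098 for Col6a2. Of the relations across mice, removing slide and group means gave r = 0.13 for Col6a1 and Col6a2 in lung. For Col4a1 and Col4a2 in liver it gave r = 0.47 and rho = 0.59. The adjusted p of r was above the threshold and that of rho below it, in permutations that ignored the slide and group terms. Signal over background limits the exposure differences to the 34 genes in lung and 32 in liver that were above background on at least 50% of the arrays of a group.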
